A study of Homo sapiens with 14 samples.

Results

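RNA secondary structure was examined in HepG2 cells after silencing of ADAR1, from the knockdown (KD) libraries of a PARS-seq experiment. In PARS-seq, purified RNA is refolded in the tube and cut by 1 of 2 nucleases, S1, which prefers single-stranded (SS) RNA, or RNase V1, which prefers double-stranded (DS) RNA, and the first base of each sequenced fragment marks a cut. The members were the transcripts listed in all 4 KD tables (S1 and V1, replicates 1 and 2) with at least 257 read starts in each, which left 10064 of the 19119 transcripts listed in all 4 and of the 25132 listed in any table of the series. In 309 members the lowest library held 257 to 300 read starts, and 442 transcripts just outside the limit had 200 or more in their lowest library. Member length ran from 29 to 205012 bases with a median of 3084. Of the members, 5499 are not listed in the short table of S1 control replicate 1 and entered the comparison with control cells only in a fit without that library.

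HepG2 is a line derived from a human hepatocellular carcinoma. The KD cells were transfected with siRNA against ADAR1 (siADAR1) and the control cells with scrambled siRNA, so that ADAR1 is lowered and not deleted, and the line is otherwise the same in both groups. The series also holds 4 control PARS-seq libraries, RNA-seq and Ribo-seq. RNA was poly-A selected, heated, and renatured before digestion, and the profiles are thus those of RNA folded in vitro without cellular proteins. ADAR1 is an adenosine deaminase that binds double-stranded RNA and turns adenosines into inosines, most of them in inverted Alu repeats of introns and 3'UTRs. Inosine pairs as guanosine does, so that editing can create or break base pairs, and unedited cellular duplexes can be recognised by sensors of the interferon response. A PARS score above 0 marks a base with more V1 than S1 cuts, and a score below 0 the opposite.

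The targeted gene was lower in the libraries labelled KD. In RNA-seq, with 1 library per condition, ADAR stood at 54.8 RPKM (a read count divided by gene length and by depth) in control and 15.4 in KD cells, and the authors' PARS-seq means were 40.7 and 46.8 in control against 15.1 and 15.1 in KD. Ribo-seq gave 43.6 and 55.5 RPKM in control replicates 1 and 2, with 8.73 in KD replicate 1 and 44 in KD replicate 2, so that the latter was close to control. ADARB1, which encodes the related editing enzyme ADAR2, stood at 30.2 and 33.2 RPKM in the control and KD RNA-seq, while its PARS-seq means were 5.75 and 8.89 in control against 13.8 and 16.9 in KD. The labelled cell type was not matched by its markers. Of the 14 hepatocyte markers, 13 are listed in the RPKM table, and in RNA-seq of KD cells albumin (ALB) stood at 0.0442 RPKM while AFP, APOB and TTR were listed at 0. In the same library the markers of other cell types were mixed. Of the mesenchymal ones VIM, an intermediate filament, stood at 449 RPKM, COL1A1 at 40.4, FN1 at 3.18 and COL1A2 at 0.0122, and POSTN and THY1 were listed at 0. Of the squamous and basal ones KRT17 stood at 592, SFN at 436 and KRT14 at 0.0607, and KRT5 and KRT6A were listed at 0. The libraries are called by their labels below, and no member with a symbol was a hepatocyte marker.

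The 4 KD libraries held 139104794 and 96618292 read starts for S1 and 214584779 and 122526174 for V1. A single transcript, uc022brd.2, took 45.0 and 42.2% of these for S1 and 54.7 and 42.4% for V1, and all members together between 99.4 and 99.5%. Across members, log2 read starts of replicates of the same nuclease correlated at 0.981 for S1 and 0.983 for V1, and those of different nucleases at 0.931 to 0.954. Over 100-base windows the same values were 0.953 and 0.949 within a nuclease and 0.786 to 0.810 between them. The nuclease thus separated the libraries more clearly within transcripts than between them.

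The cut pattern itself is shown by stretches of 30 bases from transcripts whose sequence could be paired with their profile. They were taken because each holds, within 1 exon, the most bases classified both ways in its transcript, and because they include a small nucleolar RNA and coding stretches of long mRNAs. A base was classified as DS or SS where V1 and S1 read starts differed against the library totals (Fisher's exact test, two-sided, p under 0.05 at that base) in both KD replicates. Each stretch is given once with the DS bases in capitals and once with the SS bases in capitals, 5′ to 3′, from the GENCODE transcript of GRCh37 with the same symbol and exactly the same length.
SNORA52, DS in capitals: ggTCCAtcCTaatccctgcCggtCcatctg
SNORA52, SS in capitals: ggtccatcctaAtccctgccggtccATCTG
COL3A1, DS in capitals: CTataggTCCATCTgGTCCTgcTggaaaag
COL3A1, SS in capitals: ctATAggtccatctggtcctGCtGGAAAAG
TOP1, DS in capitals: gagacgaatcATgcCCGaggAtataaTcaT
TOP1, SS in capitals: GAGAcGaatcatgcccgaggatatAAtcat
HSP90AB1, DS in capitals: gaACAAgaagaaaaagaAcaACATCAaACT
HSP90AB1, SS in capitals: GAacaaGAaGAAAAAGAacaacatcaAact

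SNORA52, an H/ACA box snoRNA of the class that guides pseudouridylation, is shown from chr11:811682-811711 on the plus strand, in its only exon. Its stretch held 8 DS and 6 SS bases, and the scores ran from −6.23 to 7.15 in replicate 1 and from −6.37 to 6.76 in replicate 2. The stretch of COL3A1, the chain of type III collagen, lies in coding exon 8 at chr2:189854144-189854173 on the plus strand, with 15 DS and 12 SS bases and scores of −6.63 to 9.21 in replicate 1 and −3.98 to 8.91 in replicate 2. In TOP1, which encodes DNA topoisomerase I, the stretch lies in coding exon 12 at chr20:39728842-39728871 on the plus strand and holds 8 DS and 7 SS bases. The HSP90AB1 stretch, from the mRNA of a constitutive cytosolic HSP90 chaperone, lies in coding exon 7 at chr6:44218862-44218891 on the plus strand, with 14 DS and 13 SS bases. That each stretch holds bases of both kinds follows from how the stretches were chosen and does not describe the rest of the transcript.

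The PARS scores of single bases ranked alike in both KD replicates and differed in size. The score was computed as log2((V1 + 1)/(S1 + 1)) after scaling the libraries to equal totals, for bases with at least 10 read starts of V1 and S1 together in each replicate. Of the 37351617 bases of the members, 29.2% had a read start in replicate 1 and 26.7% in replicate 2, and 1317470 bases (3.53%) reached this minimum in both. Over them the scores of the replicates correlated with a Pearson coefficient of 0.937 and a Spearman coefficient of 0.922, a description over bases that share libraries and transcripts. The agreement grew with depth. Over bases whose shallower replicate held 10 to 19 read starts the coefficient was 0.899 and 91.2% of bases had the same sign, and over those with at least 500 it was 0.983 with 96.3%. The difference between the replicates had an SD of 1.38 on the log2 scale in the former and 0.993 in the latter. Within single members the median coefficient was 0.938 over the 5714 members with at least 50 scored bases, and the lowest was 0.842.

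Bases with a score above 0 were the more common, 58.1% in replicate 1 and 59.5% in replicate 2. The Fisher test classified 1365349 bases as DS and 1199082 as SS in replicate 1 (6.87% of all bases), and 1172283 and 918643 in replicate 2 (5.6%). Of the 1437053 bases classified in both replicates, 7375 (0.513%) had opposite calls. Of the DS bases of replicate 1, 57.1% were called DS again in the less deeply sequenced replicate 2, and 54.2% of its SS bases were called SS again. Most bases of these transcripts therefore stayed unclassified at this depth, while opposite calls were rare.

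**Figure D1:**
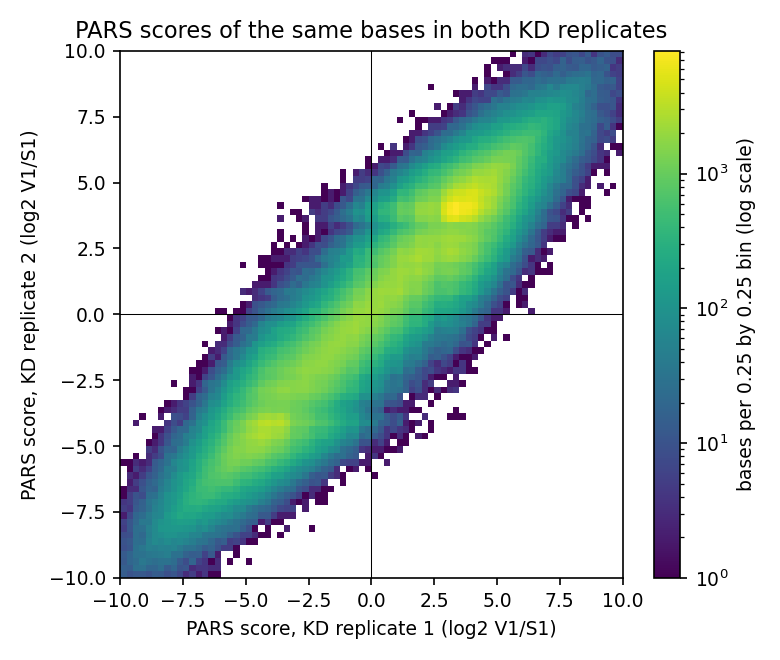
PARS scores (log2 V1/S1) of the 1317470 member bases with at least 10 read starts in each KD replicate, replicate 1 on the horizontal and replicate 2 on the vertical axis, with the number of bases per bin as colour on a log scale. The bases lie along the diagonal (Pearson coefficient 0.937) with a dense group on each side of 0.

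Bases of a kind came in short blocks. Over the 1997 members with at least 200 scored bases, the mean correlation of the score of a base with that of its neighbour was 0.772 in replicate 1 and 0.763 in replicate 2. It fell to 0.505 and 0.496 at a distance of 2 bases and was near 0 at 5 bases, with 0.0234 and 0.0265. At 7 bases it was negative, with −0.15 and −0.14, and 86.2% of these members were below 0 in both replicates. By 12 bases it had returned to −0.02 and −0.01. Runs of bases classified alike in both replicates were short, with a mean of 1.63 bases over 477133 DS runs and 1.82 over 357365 SS runs. The longest DS run held 53 bases and the longest SS run 28, and 13.6% of DS bases and 19.3% of SS bases lay in runs of at least 5 bases.

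**Figure D2:**
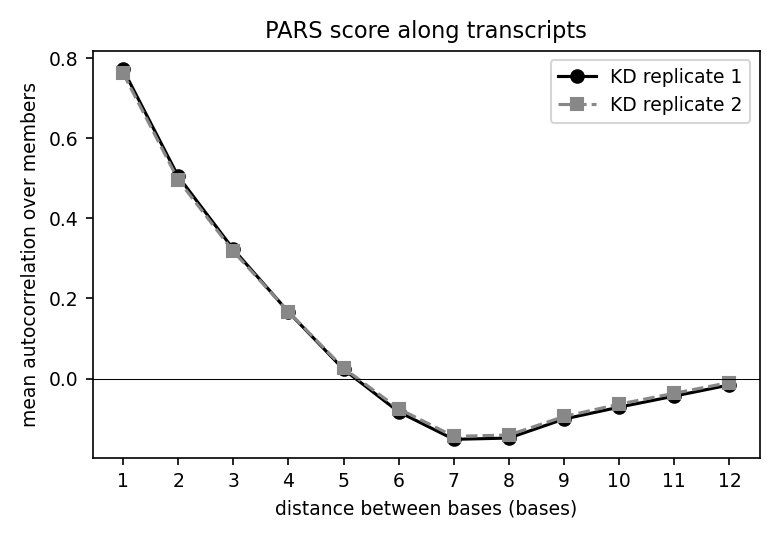
Mean autocorrelation of the PARS score (vertical axis) against the distance between bases of a transcript in bases (horizontal axis), over up to 1997 members with at least 200 scored bases, for both KD replicates. Both curves start at 0.772 and 0.763, cross 0 after 5 bases and are lowest at 7 bases.

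The score differed between nucleotides and followed computed base pairing. Sequence could be assigned to 35 members, with 6734 scored bases, and the probability of each base to be paired was computed from sequence alone with RNAplfold. Bases with a pairing probability above 0.8 had a mean score of 2.43 in replicate 1 and 2.59 in replicate 2 (1622 bases), and bases below 0.2 a mean of −1.33 and −1.21 (1441 bases). Between them, at 0.2 to 0.8, the means were 0.61 and 0.79 over 3671 bases. Over all 6734 bases the score and the probability correlated at 0.388 in replicate 1 and 0.382 in replicate 2, and 33 of the 34 transcripts with at least 20 scored bases had a coefficient above 0, with a median of 0.478. CAMK2G, a subunit of a calcium/calmodulin-dependent kinase, had the highest at 0.694. PDE6D, which encodes a prenyl-binding protein, had the lowest at −0.51. A match by symbol and length can pair a profile with the wrong isoform, and whether this bears on PDE6D was not tested.

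Cytosine at the first base of the read had the highest scores, with a mean of 2.76 in replicate 1 and 3.04 in replicate 2 over 1536 bases. Uracil followed with 1.22 and 1.43, while adenine stood at −0.27 and −0.17 and guanine at −1.13 and −1.07. In HSP90AB1 taken alone, which supplied 1607 of the bases, adenines averaged 0.07 and 0.21, a comparison added after seeing the data. The order by pairing held within each nucleotide. For guanine the means in replicate 1 went from −2.89 at a probability under 0.2 to 0.50 above 0.8, for cytosine from 1.46 to 3.6, for adenine from −1.47 to 1.83 and for uracil from −1.29 to 3.21. Cytosines that were computed to be unpaired thus had a higher mean score than guanines computed to be paired.

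**Figure D3:**
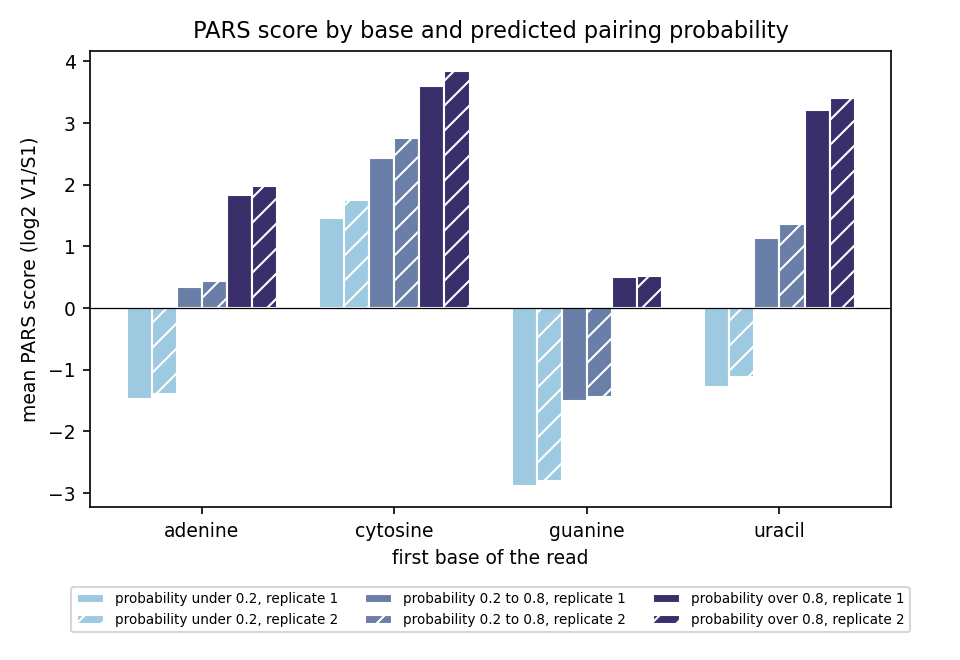
Mean PARS score (log2 V1/S1, vertical axis) of 6734 scored bases of 35 members, by the first base of the read and by the RNAplfold pairing probability, for KD replicates 1 (plain) and 2 (hatched). Within each nucleotide the mean rises with the probability, from −2.89 to 0.50 for guanine and from 1.46 to 3.6 for cytosine in replicate 1.

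Coding bases of the matched transcripts had mean scores of 0.77 in replicate 1 and 0.93 in replicate 2 (4531 bases of 32 transcripts), against 0.16 and 0.28 in 3'UTRs (1614 bases of 26 transcripts) and 0.62 and 1.19 in 5'UTRs (299 bases of 12). Within codons the first position was lowest, with 0.38 and 0.56, the second highest with 1.07 and 1.20, and the third between them with 0.87 and 1.03. These are means over bases of few transcripts and carry no test.

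Among the small structured RNAs of the members, U2 had single bases that held most of its cuts by a nuclease. U2 (uc021xtz.1), the spliceosomal RNA that pairs with the branch site, is 187 bases long and had 151281 and 128944 S1 read starts and 337868 and 468207 V1 read starts. At base 10, V1 gave 220063 and 288678 read starts and S1 354 and 479, whereas at base 17 S1 gave 128154 and 100092 and V1 484 and 850. The scores of its 33 scored bases correlated at 0.980 between replicates, and 15 bases were DS and 13 SS in both. Most V1 cuts and most S1 cuts of U2 thus fell on bases 7 positions apart. The transcript tRNA-Arg (uc021ucc.1), 73 bases long, had 1041 and 1325 S1 and 732 and 379 V1 read starts. Its base 11 had 74 and 38 V1 read starts and none of S1, and its base 38 had 225 and 316 S1 read starts against 6 and 2 of V1. In tRNA-Arg 6 bases were DS and 9 SS in both replicates, with a coefficient of 0.957 over 16 scored bases. SNORA52, whose stretch is printed above, had 19 DS and 16 SS bases in both replicates and a coefficient of 0.969. SCARNA12, a Cajal body RNA, had 28 and 18 with 0.944. No base of tRNA-Arg, SNORA52 or SCARNA12 had opposite calls, and 1 base of U2 did.

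The share of DS bases among classified bases, DS/(DS + SS), had a median close to 0.5 but varied widely among members. Over the 9816 members longer than 100 bases with at least 20 classified bases in both replicates, the median was 0.496 in replicate 1 and 0.523 in replicate 2. The mean of both replicates had a median of 0.508, quartiles of 0.430 and 0.579, and a range of 0.0803 to 0.850. In both replicates 4328 members lay above 0.5 and 3693 below it. Ratios of the replicates correlated at 0.860 over these members, so that a member's place within the range was largely kept between replicates. Each base was tested against library totals, so the ratio also carries the level of V1 over S1 read starts of the whole transcript. With the totals of each transcript in their place the median of the mean ratio was 0.487. Ratios of single transcripts and groups are not given that way.

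The highest ratios among named members with at least 100 classified bases were those of PHF10, a subunit of a SWI/SNF chromatin remodelling complex, with 0.804 and 0.897 in replicates 1 and 2, and PRSS56, a serine protease, with 0.819 and 0.821. CTSD, the lysosomal protease cathepsin D, followed with 0.75 and 0.780, PRPF19, a ubiquitin ligase of the spliceosome, with 0.745 and 0.780, and RPLP0, a protein of the ribosomal stalk, with 0.761 and 0.754. The lowest were CLDND1 with 0.252 and 0.302 and NR1D2, the nuclear receptor REV-ERB beta, with 0.296 and 0.276. MAGOHB, of the exon junction complex, stood at 0.291 and 0.292, TFB2M, a mitochondrial transcription factor, at 0.354 and 0.288, and CHCHD7 at 0.313 and 0.336. The log2 V1/S1 of read starts per transcript was above 0 for all of the highest and below 0 for all of the lowest. This held with each library left out in turn, and the part of this level in the ratios was not tested. These 10 transcripts were picked by the mean of both replicates, so that both replicates lie near the same end largely by the choice. Of the transcripts singled out in the study, F11R, a junctional adhesion molecule, stood at 0.504 and 0.523, and PSMB2, a proteasome subunit, at 0.574 and 0.569. The most covered transcript, uc022brd.2, stood at 0.797 and 0.702, with 8611 scored bases. In it 5707 bases were DS and 1719 SS in both replicates, and 425 had opposite calls, of the 7375 over all members.

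The ratio moved with depth and length. Its median was 0.414 in the quartile of members with the fewest read starts and 0.480, 0.519 and 0.573 in the following ones. By length it was 0.552 in the shortest quartile and 0.525, 0.496 and 0.472 in the longer ones, with a Spearman coefficient of −0.281 over the 9816 members. Members in the short S1 control table had a median of 0.554, and those missing from it 0.463. Within quartiles of read starts this gap was smaller and in the same direction each time, 0.447 against 0.413, 0.505 against 0.470, 0.535 against 0.496 and 0.577 against 0.530. Depth moved with the ratio, and the ratio also carries the level of V1 over S1 in the whole transcript. The part of either in the group values below was not tested. The 1997 named members, a list the study drew from these same samples, had a median ratio of 0.555.

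Groups of genes differed in the same measure, read beside these medians. The glycolytic enzymes, the chain that turns glucose into pyruvate, had a median ratio of 0.629 over 11 members, with GAPDH at 0.730 and 0.715 and TPI1 at 0.679 and 0.681. Translation initiation and elongation factors had 0.626 over 18 members, with EEF1A1, which delivers aminoacyl-tRNA to the ribosome, at 0.615 and 0.622. Cytosolic ribosomal proteins had 0.609 over 39, and subunits of oxidative phosphorylation 0.607 over 37. Heat shock proteins and endoplasmic reticulum chaperones had 0.587 over 20, splicing factors 0.588 over 39, DEAD-box and DEAH-box helicases 0.573 over 11 and proteasome subunits 0.572 over 17. These groups all lay above the median of the named members. Mitochondrial ribosomal proteins had 0.557 over 35 members, close to it.

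Below it lay the genes of double-stranded RNA handling and the interferon response, with a median ratio of 0.535 over 19 members. Among them DROSHA, the nuclease that starts microRNA processing, stood at 0.620 and 0.645, DHX9, a helicase that binds inverted Alu repeats, at 0.578 and 0.580, and B2M, the light chain of class I antigens, at 0.588 and 0.602. The replication-dependent histones had the lowest median, 0.457 over 7 members. HIST1H1C stood at 0.502 and 0.436, HIST1H2BF at 0.496 and 0.418 and HIST1H4C at 0.5 and 0.441, all lower in replicate 2. The 5 small nucleolar, Cajal body and spliceosomal RNAs had a median of 0.526. Transcripts whose 3'UTR is listed as edited in the study had 0.503 over 23 members of 173 listed, with RHOA, a small GTPase, at 0.687 and 0.689 and PGRMC2, a membrane heme-binding protein, at 0.425 and 0.418. The squamous and basal epithelial markers KRT17 (0.696 and 0.694), SFN (0.699 and 0.712) and LAMB3 (0.700 and 0.673) and the collagen COL3A1 (0.603 and 0.612) were all above the median of named members.

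How many cuts a transcript received from each nuclease was compared next, on read starts per transcript scaled to equal library totals. The median log2 V1/S1 over members was 0.03 (0.07 over all 16791 transcripts tested), a value that depends on the scaling. Regardless of sign the median difference was 0.29, beside 0.24 between the S1 replicates and 0.34 between the V1 replicates, and 585 members differed by more than 1 log2 unit, with extremes of 4.22 and −4.89. The test was limma with a mean trend and a Benjamini-Hochberg adjusted p under 0.05 over all transcripts, with 2 libraries per nuclease. It called 9.77% of all transcripts tested, 4.98% higher in V1 and 4.79% higher in S1. Among the 10064 members 366 were higher in V1 and 462 in S1. All 828 differed in the same direction in both same-numbered pairs, which the call largely requires and which adds no support. With 2 libraries against 2, an exact permutation test of a single transcript cannot give a two-sided p under 0.333. Among the 4565 members that the short S1 control table lists, 115 were higher in V1 and 353 in S1, and of the 5499 missing from it 251 and 109.

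The counts rested on single libraries, on the scaling and on whether the replicate number entered the fit. Over all transcripts 837 were higher in V1 and 804 in S1. Without S1 KD replicate 1 these were 287 and 405, without S1 KD replicate 2, 588 and 413, without V1 KD replicate 1, 1773 and 733, and without V1 KD replicate 2, 447 and 1320. Scaling to totals without uc022brd.2 moved the median of all transcripts from 0.07 to 0.21 and gave 2255 transcripts higher in V1 and 911 in S1, or 71.2% of calls higher in V1 in place of 51%. A value per transcript is therefore relative to the scaling. With the replicate number as a block in the fit, 3197 transcripts were higher in V1 and 2341 in S1. The differences between replicates 1 and 2 of S1 and V1 correlated at 0.766 over members. The labels do not say that a number marks a shared batch.

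Among named members PHF10 had the highest V1 against S1 difference. It had 1939 and 2543 scaled read starts in the S1 replicates and 31750 and 53667 in V1, a log2 difference of 4.22 ± 0.30 (SE, limma adjusted p = 2.4e-07). Of its V1 read starts 93.5 and 95.3% fell in the 100 bases from base 1401. EMG1, a pseudouridine methyltransferase of ribosome assembly, had 80264 and 102360 in S1 and 303100 and 532981 in V1, a difference of 2.15 ± 0.33. PRSS56 had 13775 and 14272 in S1 and 52837 and 54783 in V1, and its difference of 1.94 ± 0.27 changed little, to 1.85, without its window of most read starts. Without their windows PHF10 stood at 1.69 and EMG1 at 1.76, and both were still called. In each of these transcripts both V1 libraries lay above both S1 libraries, which follows largely from picking called transcripts.

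The cytokine MIF followed with a log2 difference of 1.79 ± 0.26, from 870 and 805 scaled read starts in S1 and 2461 and 3414 in V1. UQCRH, a subunit of respiratory complex III, had 1.63 ± 0.27, and 68.3 and 63.5% of its V1 read starts lay in its first 100 bases. Without that window its difference was 0.29 and not called. RPS21 of the small ribosomal subunit had 1.35 ± 0.30, TCTEX1D2, a dynein light chain, 1.35 ± 0.25, and COA3, a cytochrome c oxidase assembly factor, 1.33 ± 0.27. PYCR1, of proline synthesis, had 1.30 ± 0.30 and FXYD5, a regulator of the sodium pump, 1.30 ± 0.35. Without the window of most read starts TCTEX1D2 (0.76) and COA3 (0.75) were not called either, whereas MIF (1.94), RPS21 (1.5), PYCR1 (1.54) and FXYD5 (1.5) were. The calls of COA3 (1.22), PYCR1 (0.98), FXYD5 (0.90) and RPS21 (1.21) were lost without S1 KD replicate 1, that of RPS21 (1.49) also without S1 KD replicate 2, and that of FXYD5 (0.75) also without V1 KD replicate 2.

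Among the named members with the largest S1 excess, 9 are described here. CTSF, the lysosomal protease cathepsin F, had 18112 and 23975 scaled read starts in S1 and 3451 and 4007 in V1, a log2 difference of −2.49 ± 0.27 (limma adjusted p = 2.5e-05). Of its S1 read starts 95.5 and 95.9% lay in the 100 bases from base 1801, and without them the difference was 0.74 and not called. LIFR, the receptor of leukemia inhibitory factor, had 173814 and 217711 in S1 and 30845 and 41817 in V1, and its difference went from −2.44 ± 0.29 to −0.26 without its window.

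The small GTPase ARF5 had a log2 difference of −2.29 ± 0.29, the ribosomal proteins RPL35A −2.26 ± 0.30, RPL24 −2.19 ± 0.29 and RPL12 −2.12 ± 0.30, and LSM5, of the ring that binds U6 RNA, −2.25 ± 0.26. TMCO6 had −2.21 ± 0.27 and TOMM6, of the mitochondrial import pore, −2.12 ± 0.28. Without the window of most read starts only RPL24 of these 7 was still called, at −1.10, and the others stood between −0.08 for TMCO6 and −0.72 for TOMM6. Of the members without a symbol uc021wek.1 and uc021yce.1 had the largest V1 excess, at 4.17 and 3.64, below PHF10. On the S1 side such members went further than CTSF, with uc022bai.1 at −4.76. The lowest, uc009xrx.3 at −4.89, stood at 0.82 without the window that held 98.8 and 98.7% of its S1 read starts.

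**Figure D4:**
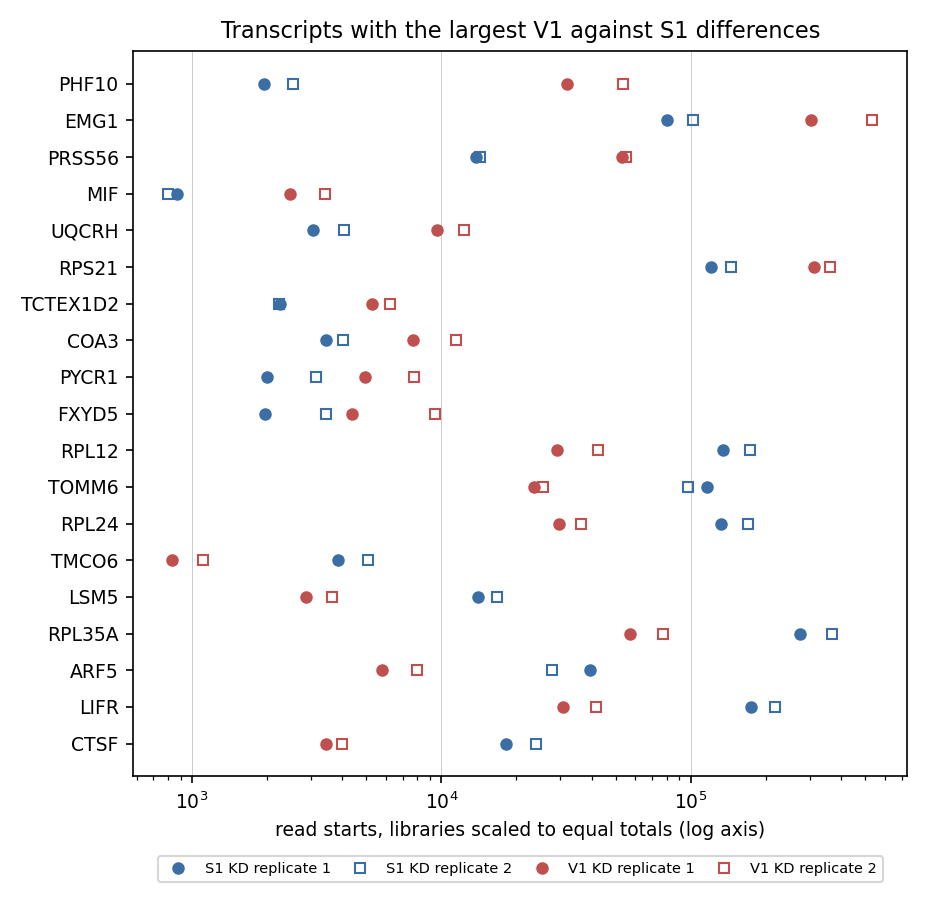
Read starts per transcript, with libraries scaled to equal totals (log axis), for the 10 named members with the highest V1 against S1 difference and 9 of those with the lowest, with 1 point for each of the 4 KD libraries. In each transcript both V1 points lie on 1 side of both S1 points, from PHF10 at 4.22 to CTSF at −2.49 on the log2 scale. The transcripts were picked because they were called, so this separation largely follows from the choice.

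Many calls depended on a single window, more of them on the S1 side, which was examined after seeing the data. The median member had 21.4% of its read starts in its window of most read starts, and the called members 33.7%. More than 50% lay there in 662 members, of which 191 were called. Without that window in each transcript, 410 members were higher in V1 and 105 in S1, in place of 366 and 462. Of the 828 called members 242 were still called the same way, 184 of them higher in V1 and 58 in S1. A further 100 had the other sign, 5 of them called the other way, and 29 could not be tested.

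Read by gene group, the share of members called ran from 0 to 42.9%, beside 9.77% over all transcripts tested. It was 25.6% for cytosolic ribosomal proteins, 24.3% for subunits of oxidative phosphorylation and 11.4% for mitochondrial ribosomal proteins. Of the 39 cytosolic ribosomal proteins 2 were higher in V1 (RPS21 and RPLP0, the latter at 1.24) and 8 in S1, among them RPL37 at −1.57, RPL5 at −1.20 and RPS26 at −1.09, with a group median of −0.08. Of the 37 subunits of oxidative phosphorylation 3 were higher in V1 (UQCRH, NDUFA7 and NDUFA8) and 6 in S1. Of these NDUFA1 had −1.91, ATP5B, the catalytic subunit of ATP synthase, −1.39, NDUFA5 −1.27, NDUFB7 −1.22, ATP5H −1.10 and NDUFS4 −0.83. Mitochondrial ribosomal proteins had 4 of 35 higher in S1, MRPL53 (−1.58), MRPL40 (−1.16), MRPL14 (−1.11) and MRPS15 (−0.94), and none in V1. These balances depended on the scaling. With TMM scaling 3 cytosolic ribosomal proteins were higher in V1 and 13 in S1, 4 and 9 subunits of oxidative phosphorylation, and 0 and 9 mitochondrial ribosomal proteins. Of all 16791 transcripts tested, 982 were then higher in V1 and 1291 in S1. With totals without uc022brd.2 the counts of these groups were 3 and 9, 9 and 7, and 5 and 6, beside 2255 and 911 of all transcripts. The group medians of the first and second of these groups turned from −0.08 to 0.06 and from −0.04 to 0.10. Without the window of most read starts in each transcript, RPS21, RPL24, NDUFA1 (−1.25), NDUFA5 (−1.26) and MRPL53 (−1.19) were still called. RPS26 was called the other way, at 1.25 (limma adjusted p = 0.037), and RPL37 (0.45) and MRPL14 (0.10) took the other sign without a call. The other members named in this paragraph lost their call, among them RPLP0 at 0.83, RPL5 at −0.55, ATP5B at −0.75, ATP5H at −0.32, NDUFA8 at 0.50 and NDUFS4 at −0.08. Only RPL12, RPL24, RPL35A, UQCRH, NDUFA1 and MRPL53 were called without each of the 4 libraries in turn. Without S1 KD replicate 1 all others named in this paragraph lost their call, with RPLP0 at 1.26, RPL37 at −1.45, RPL5 at −1.41, RPS26 at −1.28, ATP5B at −1.66 and MRPL40 at −1.07. Without S1 KD replicate 2 the same was true except for RPL37 and MRPL40, with RPLP0 at 1.21, ATP5B at −1.12 and ATP5H at −0.91. Without V1 KD replicate 1 the calls of ATP5H (−0.69), NDUFS4 (−0.76) and MRPS15 (−0.65) were lost, and without V1 KD replicate 2 those of NDUFA7 (0.76) and NDUFA8 (0.77). Reads of ribosomal protein and histone mRNAs can match near-identical copies, and only uniquely aligned reads were kept, so their levels are uncertain.

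Of the 7 replication-dependent histones 3 (42.9%) were higher in S1, HIST1H4B at −1.83, HIST1H1C at −1.33 and HIST1H2AG at −1.18, with a group median of −0.78. This median was −0.85 with TMM scaling and −0.64 with totals without uc022brd.2. HIST1H1C had 55.2 and 56.1% of its S1 read starts in the 100 bases from base 401 and stood at −0.41 without them. Among the other groups 1 or 2 members were called. They were EEF1G (−1.23) of 18 translation factors and PSMD13 (−1.03) of 17 proteasome members, both higher in S1, and HSPB8 (1.01) and DNAJB4 (0.89) of 20 heat shock proteins and chaperones, both higher in V1. Of 5 small nuclear and nucleolar RNAs SCARNA17 was higher in V1 (0.90) and RNU4ATAC, of the minor spliceosome, in S1 (−1.57). With TMM scaling 1 translation factor was higher in V1 and 4 in S1, and with totals without uc022brd.2 4 and 2. For proteasome members the counts were 0 and 3, and 2 and 2, and for heat shock proteins and chaperones 2 and 1, and 3 and 0. Over all 16791 transcripts tested they were 982 and 1291, and 2255 and 911. Without the window of most read starts HSPB8 was still called at 0.91, and RNU4ATAC could not be tested. The others were not called, with HIST1H4B at −0.54, HIST1H2AG at 0.05, EEF1G at −0.26, PSMD13 at −0.66, DNAJB4 at 0.75 and SCARNA17 at 0.80. HIST1H4B and RNU4ATAC were called without each of the 4 libraries in turn. Without S1 KD replicate 1 the other 7 lost their call, with HIST1H1C at −1.32, HIST1H2AG at −0.92, EEF1G at −1.23, PSMD13 at −1.26, HSPB8 at 0.85, DNAJB4 at 1.05 and SCARNA17 at 0.95. Without S1 KD replicate 2 EEF1G (−1.22), PSMD13 (−0.80), HSPB8 (1.18), DNAJB4 (0.72) and SCARNA17 (0.85) were not called, without V1 KD replicate 1 PSMD13 (−0.66) was not, and without V1 KD replicate 2 HSPB8 (0.80) was not. Genes named here beyond the 3 most covered of a group were chosen because they were called.

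No member was called among the 39 splicing factors, the 11 helicases, the 11 glycolytic enzymes and the 19 genes of double-stranded RNA handling and interferon response. In the last group the values ran from −0.52 for DHX9 to 0.56 for IFIT1, an interferon-induced RNA-binding protein, and EIF2AK2, the kinase PKR that is activated by double-stranded RNA, stood at −0.22. With TMM scaling 1 splicing factor was called higher in V1 and 1 helicase higher in S1. With totals without uc022brd.2, 6 splicing factors, 2 glycolytic enzymes and 1 interferon gene were called, all higher in V1. Of all 16791 transcripts tested 982 were higher in V1 and 1291 in S1 with TMM scaling, and 2255 and 911 with totals without uc022brd.2. Of the 23 members with a listed edited 3'UTR, PGRMC2 was higher in S1 with 20519 and 30840 scaled read starts against 6603 and 10443 in V1 (−1.60 ± 0.30, limma adjusted p = 0.0035). It stayed called at −1.58 without its window of most read starts, but not without S1 KD replicate 2 (−1.31). With TMM scaling 4 members of this list were higher in S1 and 0 in V1, and with totals without uc022brd.2 3 and 1. LAMB3, a laminin chain, was higher in V1 at 0.96, with 2975 and 3661 in S1 and 5688 and 7296 in V1. Its call was lost without S1 KD replicate 1 (0.82), S1 KD replicate 2 (1.11) or V1 KD replicate 2 (0.79), and without its window of most read starts (0.80).

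The small RNA tRNA-Arg (uc021ucc.1) was higher in S1, with 1072 and 1964 scaled read starts against 489 and 443 in V1 and a log2 difference of −1.64 ± 0.29 (limma adjusted p = 0.0021). Without S1 KD replicate 2 it was not called (−1.20). U2 had 155744 and 191122 in S1 and 225485 and 547240 in V1, a difference of 1.03 ± 0.37 that did not pass the test (limma adjusted p = 0.098). F11R stood at −0.33 ± 0.27, PSMB2 at 0.26 ± 0.29 and uc022brd.2 at 0.14 ± 0.40, and none of these was called.

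Within transcripts V1 and S1 cuts were distributed differently in many 100-base windows. For each 100-base window, read starts were set against those of the rest of the transcript, which removes the level of the transcript, and compared with limma. Of 210902 windows 35.1% were called, 22.5% with a higher share in V1 and 12.6% with a higher share in S1, or 47510 and 26557 windows. The median log2 difference over all windows was 0.27, and since a window is set against the rest of its transcript, a window rich in 1 kind of cut shifts all others the opposite way. Of the 9674 members with at least 5 tested windows, 9054 had windows of both kinds, 289 only of V1, 249 only of S1 and 82 none. At shares of 22.5 and 12.6% over all windows, a member with many tested windows will often hold both kinds wherever the calls fall. These counts are therefore not read as a result about the members. A V1 window was followed by another V1 window in 29.6% of cases and by an S1 window in 12.8%. An S1 window was followed by another in 14.7% and by a V1 window in 20.5%. Neighbouring windows were thus only weakly alike, with a coefficient of 0.104 over 169273 pairs.

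Among named members the windows of largest V1 excess lay within the first 300 bases in 4 of 5 cases. The first 100 bases of LEPRE1, a collagen prolyl hydroxylase, had 0 and 2 S1 read starts and 99 and 81 of V1. Those of SRSF5, a splicing factor, had 21 and 33 of S1 and 2337 and 1694 of V1. In TOMM40, the mitochondrial import channel, bases 201 to 300 had no S1 read start and 79 and 30 of V1, and in TES, a focal adhesion protein, bases 101 to 200 had none of S1 and 60 and 28 of V1. The fifth was ZFAND5, whose bases 401 to 500 had 1 and 0 of S1 and 91 and 53 of V1. Outside SRSF5 the S1 read starts of these windows were few, so that their log2 values depend on the added count of 0.5 and are not given.

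The 5 windows of largest S1 excess held very different parts of the S1 cuts of their transcripts. In UBE3C, a ubiquitin ligase, bases 3801 to 3900 held 75.2 and 76.2% of the S1 read starts and 3.90 and 3.42% of those of V1, a local log2 difference of −6.36 ± 0.25 (limma adjusted p = 4.6e-05). In LSM5 bases 301 to 400 held 67.4 and 72.3% of S1 and 2.91 and 4.49% of V1. The first 100 bases of PXMP2, a peroxisomal membrane channel, held 47.3 and 33.6% of S1 and 0.723 and 0.318% of V1. In SNX13, a sorting nexin, bases 3601 to 3700 held 8.51 and 8.24% of S1 against 0.116 and 0.0637% of V1, and in COL12A1, the chain of type XII collagen, bases 5301 to 5400 held 4.79 and 5.80% against 0.116 and 0.0672%. These 5 windows were picked as the most extreme called ones, so a difference larger than the distance between replicates follows from the choice.

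Along members of at least 1000 bases the V1 windows became rarer and the S1 windows more common towards the 3′ end. In the first decile of the transcript length 24% of windows were called V1 and 11% S1, and in the fourth 24.8 and 10.8%. In the last decile 12.2% were called V1 and 16.9% S1, with a median log2 difference of −0.08 in place of 0.33 in the first. The last decile was the only one with more S1 than V1 windows.

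**Figure D5:**
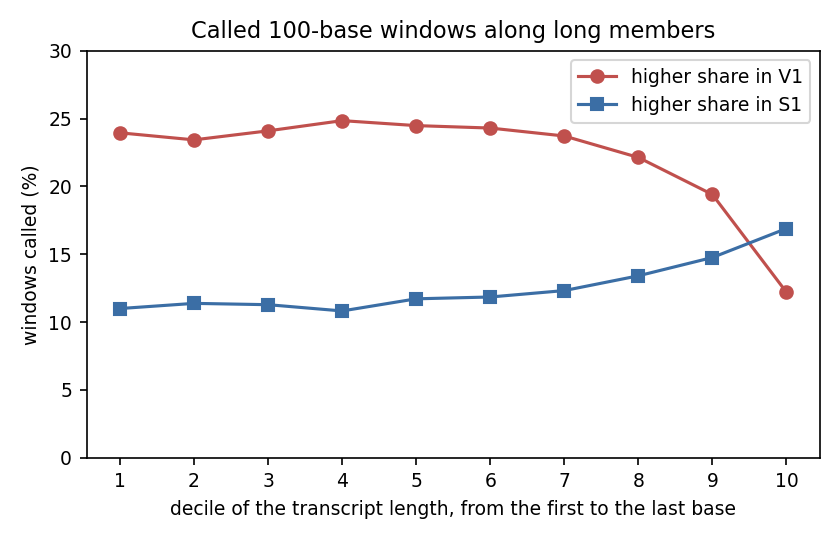
Percentage of tested 100-base windows called with a higher share in V1 or in S1 (vertical axis) by decile of the transcript length from its first to its last base (horizontal axis), for members of at least 1000 bases. V1 calls go from 24% in the first decile to 12.2% in the last, and S1 calls from 11 to 16.9%.

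The ends of the members were then tested by themselves. For the first 100 bases, a region that often holds the 5'UTR, 3499 members of at least 500 bases could be tested with limma and 41.7% were called, 28.6% higher in V1 and 13.1% higher in S1, or 999 and 460 members. The median member had 1.64 and 1.46% of its S1 read starts there and 2.23 and 1.73% of those of V1, with a median log2 difference of 0.37 that was positive in both same-numbered pairs (0.39 and 0.28). Leaving out V1 KD replicate 1 gave 599 higher in V1, and leaving out S1 KD replicate 1 or V1 KD replicate 2 gave 300 or 302 higher in S1, while the median stayed between 0.21 and 0.53.

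For the last 200 bases 7049 members were tested and 9.76% called, 2.26% higher in V1 and 7.5% higher in S1, or 159 and 529 members. With the replicate number as a block the counts were 1177 and 2239, though the labels do not say that a number marks a shared batch. The median member had 3.24 and 5.08% of its S1 read starts there and 2.80 and 4.50% of those of V1, so that the replicate numbers differed by more than the nucleases did. The median log2 difference was −0.22, with −0.20 in each same-numbered pair, but it turned to 0.10 without S1 KD replicate 2 and to 0.12 without V1 KD replicate 1, and was −0.56 and −0.55 without S1 KD replicate 1 and V1 KD replicate 2. The numbers higher in S1 were then 174 without S1 KD replicate 1, 58 without S1 KD replicate 2, 75 without V1 KD replicate 1 and 237 without V1 KD replicate 2, and those higher in V1 were 10, 33, 18 and 8. Same-numbered pairs thus had the same sign, and the sign turned where S1 KD replicate 1 alone was set against both V1 libraries or V1 KD replicate 2 alone against both S1 libraries.

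Whether the V1 against S1 differences per transcript are particular to the KD cells was tested on the 4721 transcripts that passed the filter in all 8 libraries, as the interaction of nuclease and siRNA in limma. None was called in either direction (0% of those tested), and 15 had an unadjusted p under 0.05. The count was also 0 with TMM scaling and with totals without uc022brd.2. Leaving out S1 KD replicate 1 gave 1 transcript lower in KD, leaving out S1 control replicate 2 gave 2 lower, and leaving out V1 control replicate 2 gave 1 higher. For PHF10 the interaction was 0.17 ± 0.41, for CTSF −0.24 and for PGRMC2 −0.34 on the log2 scale. A fit without S1 control replicate 1, added after seeing the data, covered the 17197 transcripts that passed the filter in the other 7 libraries, among them the 5499 members missing from the short table. It rests on 1 S1 control library, which is assumed to vary like the others. None was called (0% of those tested), and 154 transcripts, 3 of them missing members, had an unadjusted p under 0.05. The count was also 0 with TMM scaling, with totals without uc022brd.2 and without each of the other libraries except S1 control replicate 2, which this fit needs. A difference from control cells in V1 over S1 read starts per transcript was thus not detected, which does not show that the groups were alike. The scores of bases, the DS/(DS + SS) ratios, the windows and the ends were not compared with control cells here.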

How the data were processed

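PARS-seq libraries of HepG2 cells with control siRNA or siADAR1 were described from read-start tables, in which the authors deposited counts of read starts at each base of UCSC knownCanonical transcripts (hg19), from reads trimmed with cutadapt and uniquely aligned with Bowtie2 in local mode (versions not given in the sources used here). The read starts carry no normalization. The authors also deposited RPKM values per RefSeq gene, used here for markers. Members and gene lists were chosen with earlier results of these data known. Symbols were taken from a list that the study chose on these samples.

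Read starts per transcript, per 100-base window and per end were tested with limma 3.58.1 in R 4.3.3 on log2 values (0.5 added, libraries scaled to equal totals), which had passed a test on simulated data. Transcripts needed 10 read starts at median depth in 2 libraries and 15 in total, and windows and ends a mean of 20. The deposited cells hold 1 number per base, and a log-scale test was used in place of a count model. The labels do not name separate cultures, so p-values measure the spread between these samples. Where fragments share a start by PCR, read starts are not independent molecules, and Fisher's test covers counting error only. Pairing probabilities came from RNAplfold (ViennaRNA 2.7.2, window 150, span 100) on GENCODE transcripts. Python 3.11.15, numpy 2.4.6, scipy 1.17.1, pandas 2.3.3, numba 0.67.0 and matplotlib 3.10.9 were used.

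Named transcripts were, among members with a symbol, the 10 highest and 10 lowest called V1 against S1 differences, the 5 highest and 5 lowest DS/(DS + SS) ratios with at least 100 classified bases, the transcripts of the 5 highest and 5 lowest called windows, the 3 most covered members of each gene list, and the transcripts named in the study. Without a symbol, the 2 highest and 2 lowest were named. Alternatives covered scaling, filters, the added count, the replicate block, thinning and leaving out each library. Values of 2 of the listed or named genes are not reported here.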

Additional observations from a re-analysis of the deposited data

How the results depend on the processing

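Leaving out 1 library gave 287 to 1773 transcripts higher in V1 and 405 to 1320 higher in S1 (members 45 to 1123 and 189 to 909). For the first 100 bases the range was 599 to 869 and 300 to 449, with a median of 0.21 to 0.53, and for the last 200 bases 8 to 33 and 58 to 237, with a median of −0.56 to 0.12. The interaction gave 0 to 1 higher and 0 to 2 lower. TMM scaling gave 1291 transcripts and 896 members higher in S1 and 48 listed genes in S1, totals without uc022brd.2 gave 2255 and 1367 higher in V1 and 37 listed genes, and a fit of members only gave 495 in V1. Without the window of most read starts, chosen after seeing the data, 138 transcripts and 105 members were higher in S1, and of the called transcripts named by the rule 4 took the other sign, CTSF (0.74), RPL37 (0.45), MRPL14 (0.10) and uc009xrx.3 (0.82). A minimum of 100 read starts gave 22757 and 16940 windows and 436 and 262 first ends, from fewer regions tested. For the last 200 bases the median was −0.20 at a minimum of 10, −0.31 at 100 and −0.24 with 5 added. The median DS/(DS + SS) was 0.487 with transcript totals, 0.543 with totals without uc022brd.2 and 0.545 thinned. The agreement of scores was 0.956 and 0.970 at minimums of 20 and 50, 0.947 with 5 added, 0.938 without uc022brd.2 in the totals and 0.945 thinned. The share above 0 was 57.3 and 55.5% at these minimums and 52.3% thinned. The neighbour correlation was 0.787 and 0.801 at these minimums and 0.747 with 5 added, and that at 7 bases −0.14 at 50. The mean score of adenine was 0.14 in HSP90AB1 alone. Except where a setting tests fewer regions, the cause was not tested.

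The labels do not say that a replicate number marks a shared batch. With the replicate block, 3197 and 2341 transcripts (members 1754 and 1553), 1177 and 2239 last ends, 65666 and 38087 windows and 1277 and 638 first ends were called in V1 and S1, and 2 transcripts were higher in the interaction. The differences between replicates 1 and 2 of S1 and V1 correlated at 0.443 over transcripts, 0.766 over members and 0.347 over windows.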
